A study of Homo sapiens with 7 samples.

Results

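Myosin light chains are the small subunits that wrap around the lever arm of each myosin heavy chain. This account follows the 9 light chain genes MYL2, MYL3, MYL4, MYL7, MYL6, MYL6B, MYL9, MYL12A and MYL12B and the cardiac light chain kinase gene MYLK3 in human cardiomyocytes given an antisense oligonucleotide (ASO) against MYH7B. The 10 genes were taken by symbol from the 60234 rows of the deposited expression table, and all 10 were found. An ASO is a short modified DNA-like strand that binds a complementary RNA inside the cell.

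The cells came from WTC-11, an established human induced pluripotent stem cell line, differentiated to cardiomyocytes by a small molecule protocol and matured for 35 days. Both groups were then given an ASO passively at 2 uM for 96 h, a scrambled ASO in 3 libraries and the targeted MYH7B ASO in 4 libraries of poly-A RNA. The series title names the MYH7B transcript as a regulatory long noncoding RNA in the heart, and the comparison asks what its ASO does to other transcripts. One cell line was used, and the labels do not say whether the libraries came from separate cultures or differentiations, so the p-values measure only the spread between these libraries.

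Each myosin head carries 1 essential and 1 regulatory light chain. In the adult human heart MYL2 is the ventricular and MYL7 the atrial regulatory chain, while MYL3 is the ventricular and MYL4 the atrial essential chain. MYL6 and MYL6B are essential chains, and MYL9, MYL12A and MYL12B regulatory chains, of smooth muscle and nonmuscle myosin. Light chain kinases, activated by calmodulin, phosphorylate the regulatory chains, and myosin phosphatase removes that phosphate. MYLK3 encodes the kinase of heart muscle.

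In GENCODE release 29 on GRCh38, all 10 are protein-coding genes. MYL2 lies on the minus strand at chr12:110910819-110920722, MYL7 on the minus strand at chr7:44138864-44141332, MYL3 on the minus strand at chr3:46857872-46882169 and MYL4 on the plus strand at chr17:47200446-47223679. MYL6B (chr12:56152256-56159647) and MYL6 (chr12:56158161-56163496) are neighbours on the plus strand and share exonic bases. MYL9 is on the plus strand at chr20:36541484-36551447. MYL12A (chr18:3247481-3256236) and MYL12B (chr18:3261479-3278431) are plus-strand neighbours. MYLK3 is on the minus strand at chr16:46703369-46790407. Exons of MYL6 also overlap exons of SMARCC2 on the opposite strand, and whether counting used strand is not given in the sources used here.

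How well short reads can tell these paralogs apart depends on their sequence. Over the coding bases of the principal transcripts, MYL3 and MYL4 were identical at 468 of 585 aligned bases (80%) and shared no stretch of 50 bases with any other gene. The last 90 coding bases of that pair, on whose balance much of the comparison turns, differ at 15 positions, shown in capitals.

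MYL3: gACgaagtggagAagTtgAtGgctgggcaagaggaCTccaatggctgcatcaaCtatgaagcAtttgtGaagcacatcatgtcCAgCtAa
MYL4: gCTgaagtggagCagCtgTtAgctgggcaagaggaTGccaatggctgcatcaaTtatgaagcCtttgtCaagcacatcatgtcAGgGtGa

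MYL12A and MYL12B are the near-identical pair. They matched at 494 of 516 aligned coding bases (95.7%), and the last 90 bases, where the only difference is the capital letter, are closer than the rest.

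MYL12A: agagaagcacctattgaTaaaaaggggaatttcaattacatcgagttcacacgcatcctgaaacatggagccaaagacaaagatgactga
MYL12B: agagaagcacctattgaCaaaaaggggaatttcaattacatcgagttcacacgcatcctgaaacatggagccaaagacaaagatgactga

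Of the 50-base windows of each coding sequence, 23.3% for MYL12A, 23.6% for MYL12B and 10.1% for MYL6 also occurred in another gene's transcripts, and 0% for MYL2, MYL3, MYL4, MYL6B, MYL7, MYL9 and MYLK3. The split of reads between MYL12A and MYL12B is therefore uncertain, and so in part is that between MYL6 and MYL6B.

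The expression values are TPM, the authors' abundance per transcript length, scaled so that every library has the same total. TPM keeps no depth, so the number of reads behind a value is unknown and counting error cannot be given. The values of 1 library, MYH7B ASO replicate 1, were deposited out of step with the gene rows. The main comparison therefore used the 3 scrambled ASO libraries and MYH7B ASO replicates 2, 3 and 4. Values of replicate 1, with the rows put back in order, are given beside it. Its log2(TPM + 1) values correlated with those of the other libraries at a median of 0.408 as deposited and 0.955 after reordering. That library also held 17.2% of its TPM in mitochondrially encoded genes, against 27.4 to 33.2% in the scrambled ASO libraries and 31.2 to 33.6% in the other 3.

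MYH7B, the ASO target and a myosin heavy chain gene, stood at 23.0, 36.5 and 25.2 TPM in scrambled ASO replicates 1, 2 and 3. It stood at 9.30, 5.65 and 6.31 TPM in MYH7B ASO replicates 2, 3 and 4 and at 1.29 TPM in replicate 1. The groups did not overlap, and the log2 difference was -1.85 (SE 0.24, limma adjusted p = 0.0109). That call ended without MYH7B ASO replicate 4 (limma adjusted p = 0.0618), with no filter on low values (0.0779) and with replicate 1 included (0.0525). Fixed lists of cell type markers describe the bulk RNA of the cultures, not the share of each cell type. All 9 cardiomyocyte markers had means of at least 1 TPM over the 6 libraries, and their sum was 7984 to 8310 TPM in the scrambled ASO group and 5970 to 7566 TPM in MYH7B ASO replicates 2 to 4. In bulk RNA, fewer cells of a type and less RNA per cell cannot be told apart.

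In the scrambled ASO cells the chain named atrial in the adult heart exceeded the ventricular chain of each cardiac pair in every library. MYL7 led all 10 genes at 5204 ± 557 TPM (SD, n = 3). MYL4 at 1043 ± 197 TPM and MYL6 at 1025 ± 130 TPM followed and overlapped each other. MYL3 at 579.6 ± 162 TPM and MYL9 at 535.3 ± 159 TPM also overlapped. The next level down held MYL12A at 165.4 ± 51.4 TPM, MYL12B at 104.3 ± 32.6 TPM and MYL6B at 84.3 ± 13.1 TPM, where each overlapped its neighbour. MYLK3 stood below them at 55.8 ± 4.76 TPM, and MYL2, the ventricular regulatory chain, was lowest at 18.8 ± 2.62 TPM. MYL2 made up only 0.364 ± 0.077% of the summed TPM of MYL2 and MYL7.

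**Figure D1:**
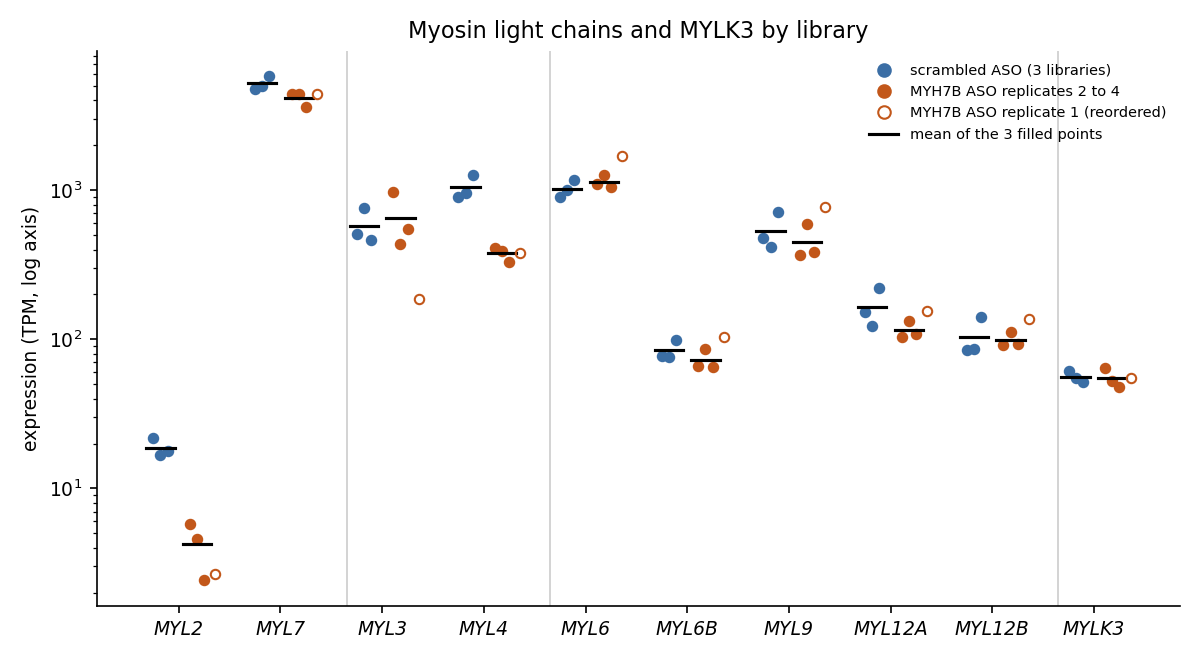
TPM of the 10 genes on a log axis, with one point per library, filled for the 6 libraries of the main comparison and open for the reordered MYH7B ASO replicate 1; bars are means of the 3 filled points, and the vertical lines separate regulatory cardiac, essential cardiac, smooth muscle and nonmuscle chains, and the kinase. MYL2, MYL4 and, by a smaller margin, MYL7 sit lower in every MYH7B ASO library than in every scrambled ASO library, while MYLK3 overlaps.

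MYL2 and MYL4 were lower in the MYH7B ASO cells, and no member passed the test in the higher direction. The test was limma on log2(TPM + 1) over 15988 genes averaging 1 TPM or more, with Benjamini-Hochberg adjustment, and a gene with an adjusted p under 0.05 is called. Of the 10 members, all 10 were tested and 2 were called, both lower. Over all genes tested, 1.66% were called in either direction and 1.48% were called lower. All genes called numbered 265, of which 29 were higher and 236 lower, and leaving out 1 library brought that number down to between 53 (without MYH7B ASO replicate 4) and 149 (without scrambled ASO replicate 2). The split of higher and lower was 58 and 213 after median-ratio rescaling and 55 and 202 after quantile normalization. The median log2 difference was -0.23 over the 10 members and -0.04 over all tested genes.

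Among the regulatory chains of the sarcomere, MYL2 stood at 21.7, 16.7 and 17.95 TPM in scrambled ASO replicates 1, 2 and 3. In MYH7B ASO replicates 2, 3 and 4 it stood at 5.74, 4.59 and 2.41 TPM, and in replicate 1 at 2.67 TPM. All 4 treated libraries were below the lowest scrambled ASO library. The mean went from 18.8 ± 2.62 TPM to 4.25 ± 1.69 TPM (SD, n = 3 each), a 4.42-fold lower level. The log2 difference was -1.96 (SE 0.27, 95% interval -2.57 to -1.35, limma adjusted p = 0.0121). This scale understates a change at such low values. The call ended without scrambled ASO replicate 1 (limma adjusted p = 0.0556) and with no filter on low values (0.0906).

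MYL7, the atrial regulatory chain and the most abundant member, stood at 4784, 4993 and 5837 TPM in the scrambled ASO libraries. MYH7B ASO replicates 2, 3 and 4 held 4430, 4444 and 3601 TPM, and replicate 1 held 4397 TPM. The groups did not overlap, but the distance between them was small beside the spread within them. The log2 difference was -0.33 (SE 0.13, 95% interval -0.63 to -0.02) and missed the threshold after adjustment (limma adjusted p = 0.296). MYL7 remained the highest of the 10 genes in every library.

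Among the essential chains, MYL4 stood at 907, 953 and 1269 TPM in scrambled ASO replicates 1, 2 and 3. In MYH7B ASO replicates 2, 3 and 4 it stood at 407.0, 393 and 329 TPM, and in replicate 1 at 378 TPM. The 4 treated libraries lay close together and well below the scrambled ASO libraries. The mean went from 1043 ± 197 to 376 ± 41.6 TPM (SD, n = 3 each), a 2.77-fold lower level. The log2 difference was -1.46 (SE 0.16, 95% interval -1.82 to -1.09, limma adjusted p = 0.00599). MYL4 was called in each of the 6 fits that left out a library, with adjusted p from 0.0143 to 0.0429. With no filter on low values, which raised the number of genes tested to 32966, its call ended (0.0556).

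MYL3, the ventricular essential chain, stood at 511, 764 and 463 TPM in the scrambled ASO libraries. It stood at 977, 438 and 546 TPM in MYH7B ASO replicates 2, 3 and 4. Replicate 1, at 186 TPM, was the lowest of the 7, so the treated libraries ran both above and below the scrambled ASO range. The log2 difference was 0.12 (95% interval -0.56 to 0.81, limma adjusted p = 0.885). It turned to -0.31 with replicate 1 included (0.798). The interval spans changes in both directions.

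The essential chains therefore stood in a different balance in the 2 groups. MYL4 exceeded MYL3 in all 3 scrambled ASO libraries, with log2 MYL3 to MYL4 ratios of -0.83, -0.32 and -1.45. MYL3 exceeded MYL4 in MYH7B ASO replicates 2, 3 and 4, at 1.26, 0.16 and 0.73. The MYL3 share of the pair was 35.8 ± 8.90% against 61.9 ± 8.94% (SD, n = 3 each). The ratio differed by 1.58 log2 units (2-sided exact permutation p = 0.1, which is the smallest that 3 against 3 libraries allow, and 0.25 adjusted over the 5 ratios tested). In replicate 1 the ratio was -1.03, inside the scrambled ASO range. With that library the difference was 1.15 (exact permutation p = 0.171) and the groups overlapped.

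**Figure D2:**
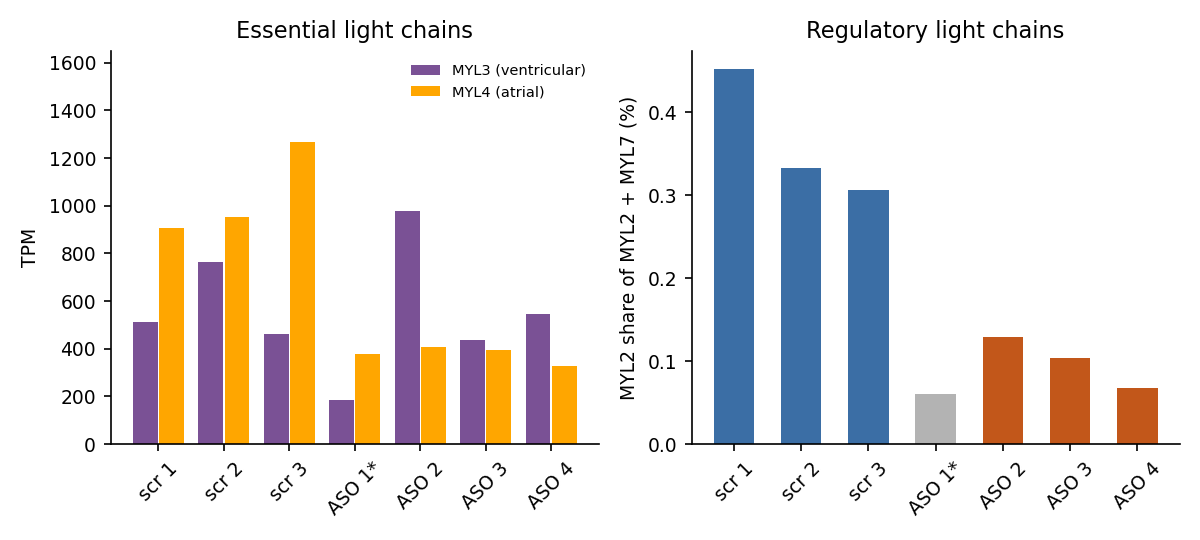
Left, TPM of MYL3 and MYL4 in each library; right, MYL2 as a percentage of MYL2 plus MYL7, with the reordered MYH7B ASO replicate 1 marked by an asterisk (grey at right), scr for scrambled ASO and ASO for MYH7B ASO. MYL4 is the taller bar in the 3 scrambled ASO libraries and MYL3 in MYH7B ASO replicates 2 to 4, while the MYL2 share is 0.307 to 0.452% in the scrambled ASO group and at most 0.129% with the MYH7B ASO.

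The regulatory pair shifted the other way with respect to chamber names. The mean log2 ratio of MYL2 to MYL7 was -8.12 ± 0.30 with the scrambled ASO and -10.02 ± 0.48 with the MYH7B ASO (SD, n = 3 each). The difference of -1.90 did not overlap between groups (exact permutation p = 0.1, the smallest possible, and 0.25 adjusted over the 5 ratios). With replicate 1 it was -2.07, and the groups were again apart (exact permutation p = 0.0571, the smallest that 3 against 4 libraries allow). MYL2 is the ventricular and MYL4 the atrial chain of its pair in the adult heart, so by these names the 2 called genes do not belong to the same chamber. Whether the adult names hold in stem cell-derived cells matured for 35 days was not tested. The MYL2 share of its pair went from 0.364 ± 0.077% to 0.0999 ± 0.0313%. MYL4 made up 11.8 ± 0.817% of all light chain TPM with the scrambled ASO and 5.32 ± 0.067% with the MYH7B ASO, whereas MYL7 made up 59.5 ± 0.831% and 58.8 ± 0.603%.

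The smooth muscle and nonmuscle chains showed no called change. MYL6, their main essential chain, stood at 906, 1005 and 1164 TPM with the scrambled ASO and at 1102, 1273 and 1054 TPM in MYH7B ASO replicates 2 to 4. The groups overlapped, and the log2 difference was 0.16 (95% interval -0.15 to 0.47, limma adjusted p = 0.617). MYL6B ranged from 76.7 to 99.4 TPM and from 64.9 to 86.4 TPM in the same groups (log2 difference -0.21, limma adjusted p = 0.598). MYL9, the smooth muscle regulatory chain, stood at 478, 413 and 715 TPM against 371, 597 and 387 TPM. Its log2 difference was -0.24 (limma adjusted p = 0.686), and scrambled ASO replicate 3 was the highest of the 6.

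MYL12A stood at 152, 122 and 222 TPM with the scrambled ASO and at 103, 134 and 108 TPM in MYH7B ASO replicates 2 to 4. Its log2 difference of -0.49 (95% interval -0.99 to 0.02, limma adjusted p = 0.345) was the third most negative of the 10. MYL12B, its near-identical neighbour, stood at 84.7, 86.4 and 142 TPM against 91.0, 111 and 93.7 TPM (log2 difference -0.04, limma adjusted p = 0.946). Scrambled ASO replicate 3 had the highest value of the 6 main libraries for MYL6B, MYL9, MYL12A and MYL12B. Among those 6 it also had the highest values of the fibroblast genes COL1A1, COL1A2 (1079 TPM), COL3A1, DCN and LUM (68.8 TPM). It did not have the highest values of the fibroblast genes PDGFRA, POSTN and TCF21. The part of fibroblast genes in these light chain values was not tested. In MYH7B ASO replicate 1 the values were 1692 TPM for MYL6, 104.3 for MYL6B, 776.9 for MYL9, 154 for MYL12A and 137 for MYL12B. Those of MYL6, MYL6B and MYL9 were above every other library.

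MYLK3, the cardiac kinase, was the member whose groups lay closest. It stood at 60.9, 55.2 and 51.5 TPM with the scrambled ASO and at 64.6, 52.7 and 47.7 TPM in MYH7B ASO replicates 2 to 4, with 55.0 TPM in replicate 1. The groups overlapped fully. The log2 difference was -0.03 (95% interval -0.39 to 0.33, limma adjusted p = 0.952).

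**Figure D3:**
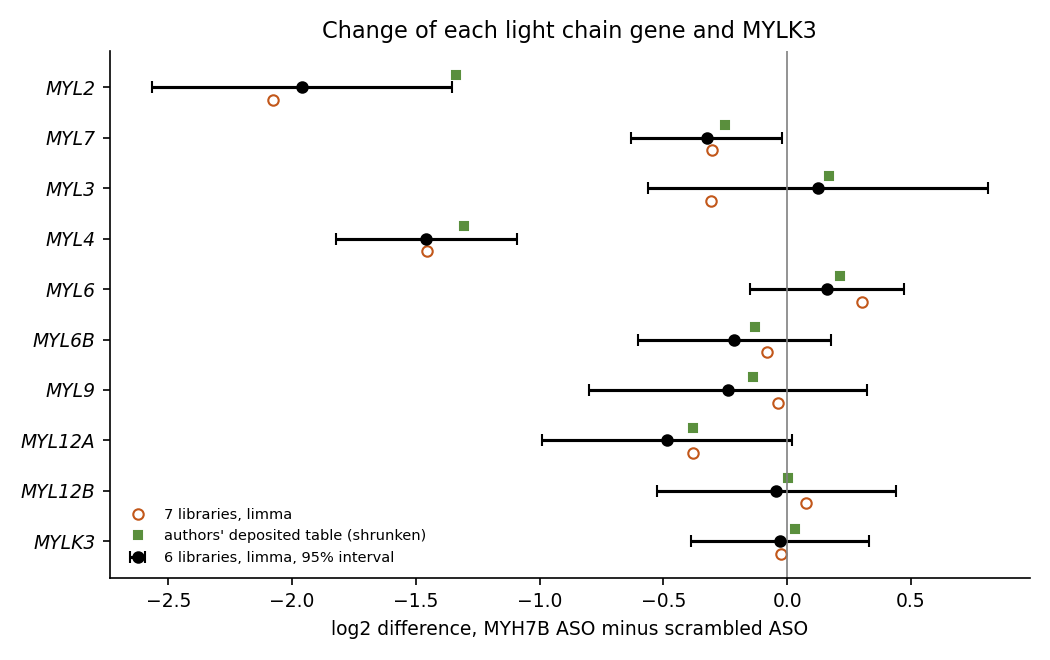
Log2 difference (MYH7B ASO minus scrambled ASO) for the 10 genes: black points with 95% intervals from the 6-library limma fit, open circles from the fit with all 7 libraries, green squares from the authors' deposited table, whose log2 fold changes are shrunken. MYL2 and MYL4 lie left of 0 in all 3, from -2.08 to -1.31, and MYL3, MYL12B and MYLK3 do not lie on the same side of 0 in all 3.

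Summed over the classes, the sarcomeric chains held 6846 ± 689 TPM with the scrambled ASO and 5193 ± 675 TPM with the MYH7B ASO, and the smooth muscle and nonmuscle chains held 1915 ± 371 and 1881 ± 278 TPM (SD, n = 3 each). The log2 ratio of these sums was lower by a mean difference of -0.38, with overlapping groups (exact permutation p = 0.2). The essential to regulatory ratio within the sarcomere differed by -0.36, also with overlap (exact permutation p = 0.3). The ratio of sarcomeric light chains to the cardiac heavy chains MYH6 and MYH7 differed by -0.07 (exact permutation p = 0.9), and its sign changed with replicate 1 included (0.08). Only MYL2, MYL4 and MYL7, 3 of the 10 members, were lower in every one of MYH7B ASO replicates 2 to 4 than in every scrambled ASO library, beside 14.1% of all tested genes.

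After treatment the order of levels changed at one place. MYL4 went from rank 2 to rank 5 by mean TPM, where it overlapped MYL9, and MYL6, MYL3 and MYL9 each moved up by 1. MYL7 kept rank 1, MYLK3 rank 9 and MYL2 rank 10.

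The same members were called by other readings of the series. With MYH7B ASO replicate 1 included, the 7-library fit called 2 of the 10, MYL2 (log2 difference -2.08, limma adjusted p = 0.0106) and MYL4 (-1.45, 0.00583), beside 0.967% of genes called lower. These fits share their libraries and are not independent. In the authors' deposited table, 2 of the 10 had an adjusted p under 0.05, both lower, beside 5.69% of its genes. The authors' deposited table gave a log2 fold change of -1.34 for MYL2 (adjusted p = 2.41e-06, mean normalized count 190) and of -1.31 for MYL4 (adjusted p = 1.85e-20, mean normalized count 11872). For MYL7 the authors' deposited table gave -0.25 (adjusted p = 0.177) and for MYLK3 0.03 (adjusted p = 0.940). Which libraries entered that table is not given in the sources used here.

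The genes whose pattern over libraries was most like that of MYL2 and MYL4 were then listed. Likeness was the root mean square distance between log2(TPM + 1) values, each centred on its own mean over the 6 libraries, among 9742 protein-coding genes averaging 5 TPM or more. The nearest to MYL2 were STMN2 (distance 0.153), FAM210A (0.193) and MYH10 (0.227), and MYL4 was 32nd (0.387). The nearest to MYL4 were ANGPT1 (0.122), PHLDB2 (0.135) and CAMK2G (0.148), and MYL2 was 255th (0.387). CAMK2G encodes a calmodulin-dependent kinase subunit, and STMN2 a microtubule regulator. These distances describe 6 libraries and carry no test.

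The heavy chains that these light chains bind had a median log2 difference of -1.27. Of these 7 genes, 3 were called lower and 0 higher, beside 1.48% of all tested genes called lower. Besides MYH7B, the ASO target itself, the called genes were MYH10, a nonmuscle heavy chain, and MYH11, the smooth muscle heavy chain. MYH10 went from 79.7 ± 11.2 to 22.6 ± 3.6 TPM (SD, n = 3 each, log2 difference -1.78, limma adjusted p = 0.00441). MYH11 went from 70.1 ± 10.2 to 12.9 ± 4.54 TPM (-2.41, limma adjusted p = 0.00599). With replicate 1 included, the call of MYH10 ended (limma adjusted p = 0.0588) and that of MYH11 held. MYH7, the slow cardiac heavy chain, stood at 1207, 1146 and 535 TPM against 568, 256 and 358 TPM (-1.27, limma adjusted p = 0.148). MYH6, the fast cardiac heavy chain, had a log2 difference of 0.14 (limma adjusted p = 0.788).

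The other kinases and activators of light chain phosphorylation were a list of 15 genes, of which 13 were tested. None was called in either direction by limma, and 5 had an unadjusted p under 0.05, beside 2435 of all 15988 genes tested. Of their log2 differences, 4 were above 0 and 9 below, with a median of -0.20. CALM3 and CALM2, which encode calmodulin, had the highest means, with log2 differences of 0.28 (limma adjusted p = 0.452) and 0.18 (limma adjusted p = 0.627). MYLK, the kinase of smooth muscle and nonmuscle cells, was singled out after its values were seen. It stood at 113, 64.2 and 107 TPM with the scrambled ASO and at 21.3, 46.6 and 41.7 TPM in MYH7B ASO replicates 2 to 4, with no overlap. Its log2 difference was -1.38 (SE 0.32, limma adjusted p = 0.0845). It missed the threshold. In the authors' deposited table, 3 of the 13 had an adjusted p under 0.05, all lower, beside 5.69% of its genes. By the authors' deposited table the 3 were MYLK (log2 fold change -0.97, adjusted p = 0.00029) and the light chain kinases ROCK1 (-0.57, 0.00338) and CIT (-0.89, 0.00743). CIT was low and its groups overlapped, at 1.03, 5.09 and 2.61 TPM with the scrambled ASO. It stood at 1.15, 0.502 and 0.856 TPM in MYH7B ASO replicates 2 to 4 and at 1.93 TPM in replicate 1. With only genes of at least 5 TPM tested, MYLK passed (limma adjusted p = 0.0445). In MYH7B ASO replicate 1, MYLK stood at 90.2 TPM, inside the scrambled ASO range.

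The phosphatase list, the catalytic subunits, targeting subunits and inhibitors of myosin phosphatase, had 9 of 9 genes tested and 0 called by limma. Its median log2 difference was 0.12, and 2 genes had an unadjusted p under 0.05, beside 2435 of all 15988 genes tested. PPP1CB, its main catalytic subunit, was lower in all 3 treated libraries (320.2 ± 46.7 against 250 ± 5.02 TPM, SD, n = 3 each), with a log2 difference of -0.35 (limma adjusted p = 0.281). PPP1CA was higher in all 3 (67.4 ± 3.94 against 87.0 ± 6.41 TPM, 0.36, limma adjusted p = 0.23). Over the whole list, 2 genes were lower and 1 higher without overlap, beside 14.1% and 7.11% of all tested genes. In the authors' deposited table PPP1CA alone of the 9 had an adjusted p under 0.05 (log2 fold change 0.40, adjusted p = 0.0208), beside 3.02% of its genes higher. PPP1CC overlapped. A list of 6 other genes, light chains of other muscles and the ligase gene MYLIP, had 3 tested and 0 called by limma, with 0 at an unadjusted p under 0.05 and 0 in the authors' deposited table. These were MYL5, MYLIP and MYLPF, and the highest value of any of them in a library was 16.6 TPM.

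**Figure D4:**
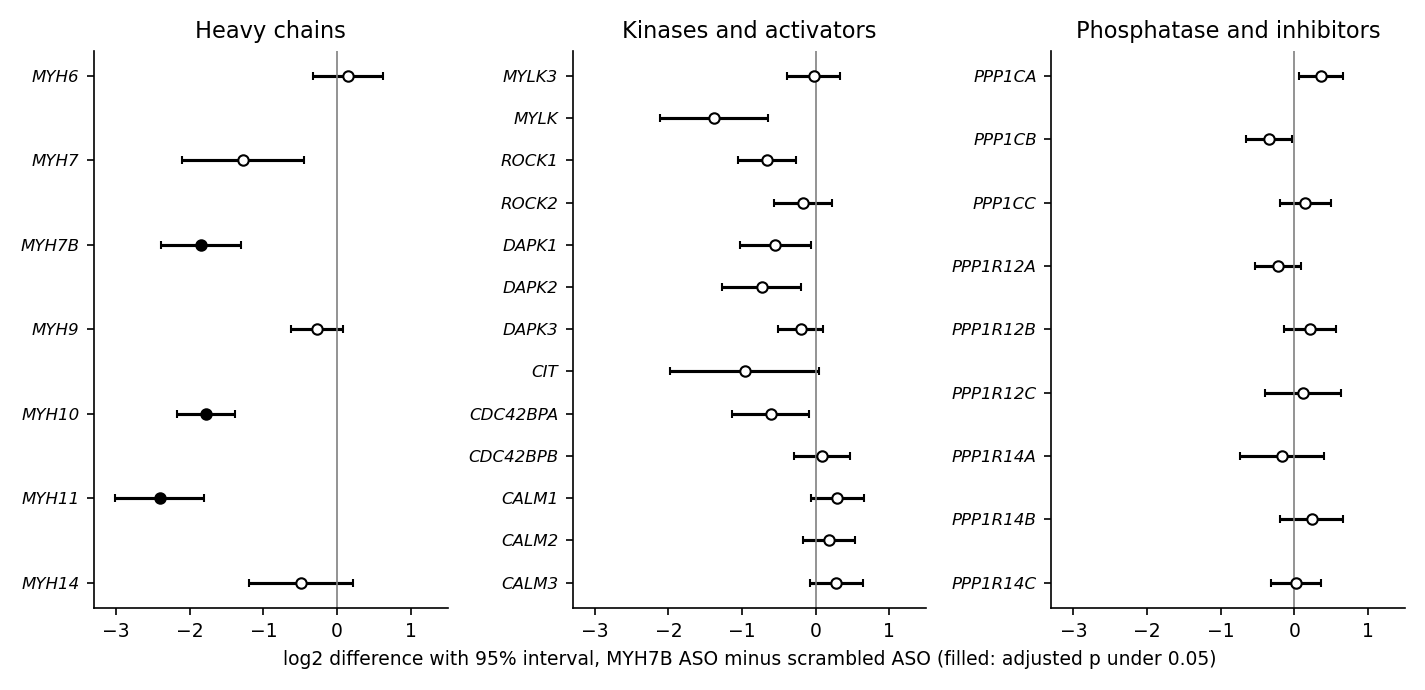
Log2 difference with its 95% interval (6-library limma fit) for the heavy chains, kinases with their activators (1 tested gene is not drawn), and the phosphatase with its inhibitors; filled points are genes with an adjusted p under 0.05. The filled points are MYH7B, MYH10 and MYH11, at -1.85, -1.78 and -2.41, and MYLK3 lies at -0.03 against -1.38 for MYLK.

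Some fibroblast and smooth muscle markers were called lower in the main comparison. Of 8 fibroblast markers, limma called 2 lower, beside 1.48% of all tested genes. These were COL1A2 (-1.38, limma adjusted p = 0.0343) and LUM (-2.22, limma adjusted p = 0.0489), and each call ended in 5 of the 6 fits without a library. The list did not go one way: 5 of its genes were lower and 2 higher without overlap, beside 14.1% and 7.11% of all tested genes. The higher ones were PDGFRA (23.7 ± 4.01 against 36.3 ± 4.27 TPM) and TCF21 (8.40 ± 1.62 against 14.4 ± 3.42 TPM, SD, n = 3 each), with limma adjusted p of 0.152 and 0.168. The authors' deposited table had 4 of the 8 lower and 2 higher at an adjusted p under 0.05, beside 5.69% and 3.02% of its genes. The fibroblast sum, made up mostly of collagens, was 2881 to 5173 TPM with the scrambled ASO and 1344 to 2071 TPM in MYH7B ASO replicates 2 to 4, and no fibroblast marker was at 0.

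Of 8 smooth muscle markers, the main limma fit called 1 lower, MYH11, beside 1.48% of all tested genes. The number was 2 with quantile normalization, with mitochondrially encoded genes removed or with only genes of at least 5 TPM. The authors' deposited table had 3 of the 8 lower at an adjusted p under 0.05, beside 5.69% of its genes. The sum of the 8 markers was 1007 to 1395 TPM against 609 to 784 TPM. The list did not all go one way, with 2 log2 differences above 0 and 6 below. CNN1 went from 181.7 ± 20.5 to 214.6 ± 19.7 TPM with overlapping groups (SD, n = 3 each). In MYH7B ASO replicate 1 the fibroblast sum was 4069 TPM and the smooth muscle sum 1142 TPM, both inside the scrambled ASO ranges. The part of these cell types in the light chain values was not tested.

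The cardiomyocyte list had a median log2 difference of -0.42, with 8 of 9 genes below 0. Without overlap, 5 were lower and 1 higher, beside 14.1% and 7.11% of all tested genes. Limma called 1 lower, beside 1.48% of all tested genes. It was ACTC1, the cardiac actin (-0.66, limma adjusted p = 0.0209), a call that ended whichever of the 6 libraries was left out. The authors' deposited table had 2 of the 9 lower at an adjusted p under 0.05, beside 5.69% of its genes. The summed level in replicate 1 was 3761 TPM, below all others. The part of these lower cardiomyocyte transcripts in the MYL2 and MYL4 values was not tested.

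None of 8 atrial and 6 ventricular markers other than light chains was called by limma, with 3 and 2 at an unadjusted p under 0.05 and median log2 differences of 0.06 in both lists. Over all 15988 genes tested, 2435 had an unadjusted p under 0.05. The authors' deposited table had 2 atrial markers higher, and 1 ventricular marker lower and 1 higher. Of all genes in that table, 5.69% were lower and 3.02% higher at an adjusted p under 0.05. None of 16 cardiac transcription factors was called by limma, with 4 at an unadjusted p under 0.05, while the authors' deposited table had 1 lower and 3 higher. Of the markers of further cell types, 2 endothelial, 5 epithelial, 2 skeletal muscle and 2 pluripotency genes were high enough to be tested. None of these was called by limma, with 1, 1, 0 and 0 at an unadjusted p under 0.05, while the authors' deposited table had 1 endothelial and 1 epithelial gene lower. The epithelial sum was 1918 to 2251 TPM with the scrambled ASO and 2212 to 2693 TPM in MYH7B ASO replicates 2 to 4. The endothelial sum was 17.5 to 21.8 TPM against 11.5 to 17.2 TPM.

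Promoter sequences were available in RefSeq's table (GRCh38.p14) for 7 of the 10 members, with 13 start sites: MYL3, MYL6, MYL6B, MYL7, MYL12A, MYL12B and MYLK3. The promoter of MYL7, the most abundant member, shows how cardiac motifs are laid out before a start site. It is the 250 bases at chr7:44141333-44141582 on the minus strand.

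MYL7 promoter: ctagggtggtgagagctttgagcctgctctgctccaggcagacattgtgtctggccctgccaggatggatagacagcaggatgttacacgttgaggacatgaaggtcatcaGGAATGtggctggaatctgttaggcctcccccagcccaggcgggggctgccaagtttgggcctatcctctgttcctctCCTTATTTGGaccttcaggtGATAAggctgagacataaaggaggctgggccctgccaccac

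Capitals mark, in order, the MCAT letters CATTCC on the opposite strand (139 bases before the start), the serum response factor box CArG (from 61 bases before it) and the GATA letters GATAA (from 41 bases before it). Both strands of the whole 300-base table entries were searched, and the 3 matches do not overlap. Of 35114 promoters in the table, 14% hold CATTCC, 22.7% GATAA and 1.29% CArG. Of the 13 member promoters, 3 held CATTCC, 4 GATAA and 1 CArG. The NKX letters AAGTG were in 6 of 13 and 43.1% of all, and the MEF2 motif in 1 of 13 and 2.99%. The TATA letters TATAAA were in 0 of 13, and in 11.5% of all. A match of letters is a description of the sequence only.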

How the data were processed

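Per the submitters' processing notes, DESeq2 and GRCh38.p13 were used; aligner, quantifier and annotation release are not given in the sources used here. The deposited expression table holds TPM per gene made by the authors, each column summing to 1000000. The authors' deposited comparison table holds a mean normalized count (a signal), a shrunken log2 fold change, a test score and p-values. No per-sample column was left unused. MYH7B ASO replicate 1 had values in 58721 of 60234 rows. They were assigned in turn to the sorted GENCODE release 29 identifiers; a shift by 1 gave a correlation of 0.416.

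Genes averaging 1 TPM or more over the 6 libraries of the main comparison were tested with limma 3.58.1 (R 4.3.3; lmFit, eBayes with trend) on log2(TPM + 1), with Benjamini-Hochberg adjustment at 0.05. No count test was run. This scale understates changes of low genes. Ratios were compared by 2-sided exact permutation over 20 or 35 splits. Coding sequences came from GENCODE release 29 (principal transcripts) and were aligned with biopython 1.88.

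The members, lists and tests were chosen with earlier results of these data known. Named genes were the members, MYH7B, MYH6, MYH7, each list's called genes (otherwise up to 3 with the highest means) and the 3 genes most like each called member; MYLK, ROCK1, CIT, PDGFRA and TCF21 were added after their values were seen. The motifs, the shared windows, the choice of transcripts and printed stretches, and the class shares were also chosen after the files were seen. Alternatives were 2 pseudocounts (0.1 and 5 TPM), 2 filters, 2 rescalings, removal of mitochondrially encoded genes, 3 variance settings, a replicate block, the seventh library and each library left out. One gene of the kinase list is counted in its totals but not reported here.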

Additional observations from a re-analysis of the deposited data

Results flagged for a closer look

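Among the 4 MYH7B ASO libraries, MYL7 in replicate 4 (3601 TPM) stood apart from 4397, 4430 and 4444 TPM in the others, beyond Dixon's 95% limit for 4 samples. Of 18 measures examined this way it was the only one past the limit, and chance flags about 1 in 20. The reordered MYH7B ASO replicate 1, which the main comparison does not use, held MYL6 at 1692 TPM, MYL6B at 104.3 TPM and MYL9 at 776.9 TPM, each above every scrambled ASO library. That library had 17.2% of its TPM in mitochondrially encoded genes, and its fibroblast marker sum was 4069 TPM. Their part in these values was not tested.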

How the results depend on the processing

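MYL2 and MYL4 were lower in all 20 alternatives; MYL2 was called in 15 and MYL4 in 16. The number of members called was 0 with no filter on low values, and 1 to 2 when a library was left out (MYL2 lost without scrambled ASO replicate 1). Genes called over all genes numbered 265, against 40 with no filter, 150 without the variance trend, 170 with 7 libraries, and 53 (without MYH7B ASO replicate 4) to 149 when a library was left out. No label says that replicate numbers pair the libraries. Deviations from the group means correlated at 0.076 and 0.11 for libraries with the same title number and at -0.073 to 0.041 for the other pairs. By description number the values were -0.073 and -0.039, against -0.069 to 0.11 for the other pairs. A pairing was therefore neither shown nor excluded. With a replicate block by title or description number, limma called 0 genes and 0 members (1718 and 1096 genes at an unadjusted p under 0.05), and with 7 libraries and the block 0 and 0 (1773). In the 6 libraries only 2 numbers occur in both groups, so these block fits had little left to estimate the spread from. The light chain to MYH6 and MYH7 ratio (-0.07) turned to 0.0139 with the title block, 0.2414 with 7 libraries and the block and 0.0772 with 7 libraries, and ranged from -0.2658 to 0.2297 when a library was left out. Among uncalled genes, MYL3 turned to -0.0209 with sample weights, -0.28 with the description block, -0.31 with 7 libraries and -0.39 with their block (-0.21 to 0.37 without a library). With 7 libraries and the block, MYL6B turned to 0.0117, MYL9 to 0.0943, MYL12B to 0.1366, MYLK3 to 0.0376 and MYH6 to -0.0547. MYL12B turned to 0.0235 with median-ratio rescaling and 0.0746 with 7 libraries (-0.17 to 0.20 without a library). MYLK3 turned to 0.0371 with median-ratio rescaling and 0.1291 with the title block (-0.1487 to 0.0659 without a library), and MYH6 to -0.0895 and -0.0109 with the title and description blocks. Where not given, the cause was not tested. TPM gives no depth, so what depth limits could not be computed.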
